A study of Capra hircus with 2 samples.

Results

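GSK3B encodes glycogen synthase kinase 3 beta, and its row is 1 of the 154 complete gene rows of a single-cell table from goat ovarian granulosa cells, which enclose the oocyte in the follicle and make oestrogen. The row was taken by its name, without regard to its values. The study profiled Ji'ning grey goats with the 10x Genomics droplet method, in which each captured transcript is counted once, from its 3′ end, through a unique molecular identifier (UMI). The high fertility group had more than 3 kids per birth and the low fertility group fewer than 2, with 1 library each, called HGC and LGC here after the prefixes of their cells. Both groups are described as granulosa cells of the same breed, and no treatment, age or number of goats is named in the labels. HGC held 7106 cells and 63769786 UMIs, with a median of 7214.5 UMIs per cell (range 619 to 102029). LGC held 3345 cells and 45674506 UMIs, with a median of 11080 (range 1086 to 137581). The libraries had 27 cell barcodes in common.

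Glycogen synthase kinase 3 beta is a serine and threonine kinase that is active in resting cells and is switched off by upstream signals. In the Wnt pathway it works in a complex with AXIN and APC that marks beta-catenin for degradation, and Wnt ligands stop that complex. In the insulin pathway AKT phosphorylates and inhibits the kinase, which releases glycogen synthase. In granulosa cells follicle-stimulating hormone also acts through AKT, and beta-catenin takes part in the transcription of the aromatase gene. The activity of the kinase is set largely by phosphorylation, which RNA counts do not measure.

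GSK3B was counted at a moderate level in both libraries. In HGC 1731 UMIs fell on the gene, or 27.1 UMIs per 1000000 (CPM; exact Poisson 95% interval 25.9 to 28.5). In LGC 1063 UMIs gave 23.3 CPM (21.9 to 24.7). By CPM the gene ranked at position 26 of the 154 rows in both libraries. These intervals, like all others here, cover counting error within a library only. The RefSeq table of assembly ARS1.2 lists 5 transcripts and 5 proteins for GSK3B on chromosome 1, and 3′ counts per gene do not tell them apart. No other gene of that table overlaps it.

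Most cells held no GSK3B UMI. HGC had 5694 cells with 0 UMIs, 1156 with 1, 212 with 2, 30 with 3, 10 with 4, 3 with 5 and 1 with 6. LGC had 2550 cells with 0 UMIs, 587 with 1, 159 with 2, 38 with 3 and 11 with 4, and no cell with more. Cells with 2 or more UMIs carried 33.2% of all GSK3B UMIs in HGC and 44.8% in LGC. The 4 cells with 5 or 6 UMIs held totals of 15922, 16609, 34532 and 38386 UMIs, well above the median of their library. On the deposited natural log scale, the cells with a count ran from 0.109 to 2.25 with a median of 0.762 in HGC. In LGC they ran from 0.0775 to 2.06 with a median of 0.576. On that scale 1 UMI gives a high value in a shallow cell and a low value in a deep one, so the lower median of LGC goes with its deeper cells.

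Detection of GSK3B followed depth. Cells with a GSK3B UMI made up 19.9% of HGC (exact binomial 95% interval 18.9% to 20.8%) and 23.8% of LGC (22.3% to 25.2%). Cells with a count had a median total of 9870 UMIs against 6761.5 in cells without in HGC, and 15178 against 9987.5 in LGC. From under 2500 to 30000 or more UMIs per cell, the share of cells with GSK3B went from 6.22% to 57.7% in HGC and from 4.47% to 58.2% in LGC. When every cell was thinned to 2000 UMIs the shares were 5.22% and 4.63%, the opposite order, and at 5000 UMIs they were 12.1% and 10.9%. Thinning to 2000 UMIs left out 209 cells of HGC and 132 of LGC. No class of cells that should lack GSK3B could be named from these rows, so a background share from free RNA could not be set beside these.

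The level per UMI moved little with depth. Over 8 bins of cell total, HGC lay between 21.99 CPM in cells of 30000 UMIs or more and 32.6 CPM in cells under 2500 UMIs, where only 24 GSK3B UMIs were counted (interval 20.9 to 48.5). LGC lay between 20.5 CPM in the deepest cells and 27.9 CPM in cells of 5000 to 7500 UMIs. The interval of a bin held the level of the whole library in 6 of 8 bins in HGC and 8 of 8 in LGC. A Poisson regression of GSK3B UMIs on the log of the cell total gave a slope of 0.948 in HGC and 0.925 in LGC, where 1 stands for a count in proportion to the total. Among the 17 other rows within a factor of 2 of the CPM of GSK3B in both libraries, the slopes ran from -0.0162 to 1.43 in HGC (SAMSN1 and CCDC80) and from 0.272 to 1.20 in LGC (SAMSN1 and CBLB).

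**Figure D1:**
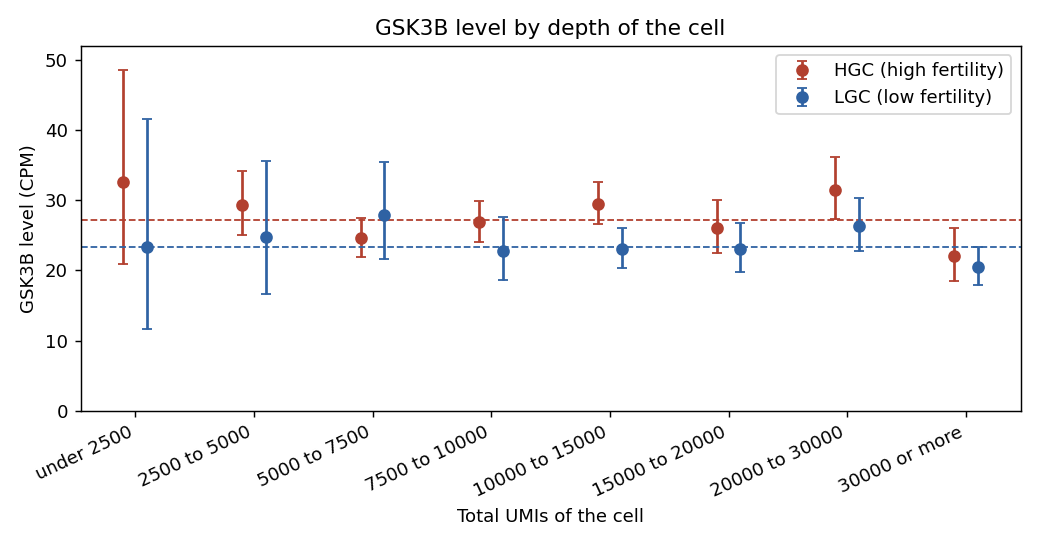
GSK3B level in CPM (vertical axis) in cells grouped by their total UMIs (horizontal axis), in HGC (red) and LGC (blue). Points are CPM of the bin, bars are exact Poisson 95% intervals and dashed lines the level of the whole library, 27.1 and 23.3 CPM. The points stay between 20.5 and 32.6 CPM over the range of depth.

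The GSK3B level differed little between the libraries. The CPM ratio of HGC over LGC was 1.17 (exact binomial 95% interval 1.08 to 1.26). Of the 101 rows whose UMIs reached 100 over both libraries, 12 (11.9%) were higher by 1.5-fold or more in HGC and 6 (5.94%) in LGC. GSK3B was not among either, and its ratio ranked at position 45 from the highest of the 101. The median ratio of these rows was 1.12, the same as that of the 18 rows with at least 50 CPM in both libraries. Relative to that median the GSK3B ratio was 1.04 (0.964 to 1.13), an interval that holds 1. Within bins of depth the ratio was above 1 in 7 of 8 bins, from 0.881 at 5000 to 7500 UMIs to 1.40 under 2500 UMIs, and the interval excluded 1 only at 10000 to 15000 UMIs (1.28, 1.09 to 1.5005). With 1 library per group no test between the groups was possible, and fertility cannot be told apart from the goat, the dissection or the library.

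The spread of GSK3B over cells was slightly wider than Poisson. If every cell expressed the gene at the same rate per UMI, 5656 cells of HGC would hold 0 UMIs, 1218 would hold 1 and 231.9 would hold 2 or more. The observed numbers were 5694, 1156 and 256. In LGC 2510 cells were expected with 0 UMIs, 660.4 with 1 and 174.8 with 2 or more, beside 2550, 587 and 208 observed. Both libraries thus had fewer cells with exactly 1 UMI than expected and more with 0 and with 2 or more. The largest relative excess among counts with at least 5 expected cells was at 4 UMIs, with 10 cells against 5.98 and 11 against 7.16.

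**Figure D2:**
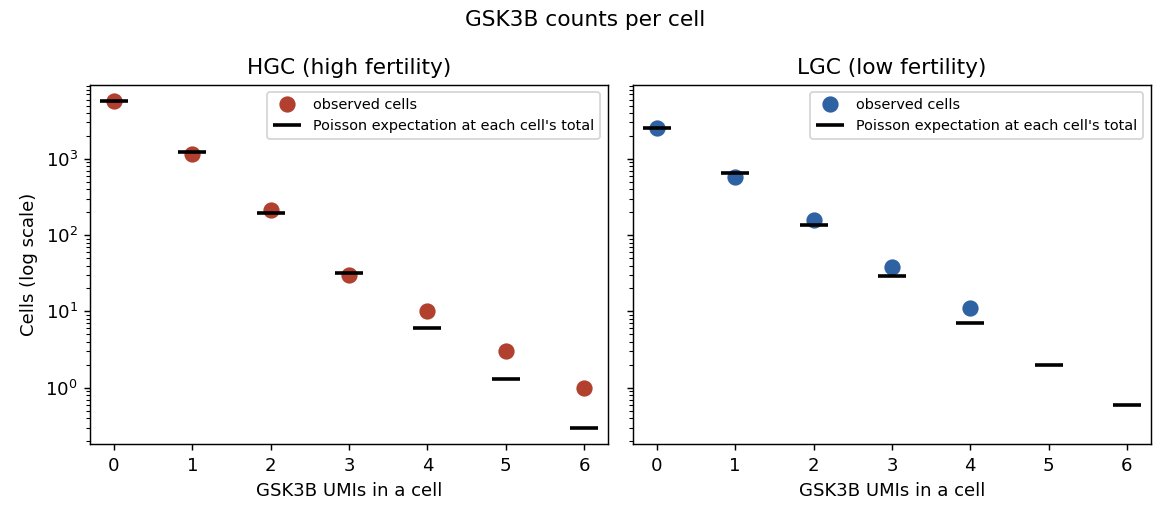
Number of cells (vertical axis, log scale) with each number of GSK3B UMIs (horizontal axis) in both libraries. Points are observed cells, no point meaning 0 cells, and black bars are the numbers expected from a Poisson count in proportion to the total of each cell. Points lie below the bar at 1 UMI (1156 against 1218, and 587 against 660.4) and above it at 2 and 4 UMIs.

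The dispersion index, the mean squared deviation from the expected count in units of the Poisson variance, was 1.10 in HGC. Poisson counting alone would give 1 with a 95% range of 0.953 to 1.05. In LGC the index was 1.15, beside a range of 0.926 to 1.07. Both values lay above their range. A separate estimate of the spread of the GSK3B rate between cells gives deep cells more weight. It put the coefficient of variation beyond Poisson at 0.551 in HGC and 0.501 in LGC. These values are not conversions of the index. Within single bins of depth the index exceeded 1 in 8 of 8 bins of HGC and 6 of 8 of LGC, and the upper end of the Poisson range in 5 and 3 bins. It was lowest at 2500 to 5000 UMIs per cell in both (1.02 and 0.960). With a separate rate for each of 20 bins of depth the index was 1.09 and 1.12. Without the cells that held FILIP1L, DCBLD2, CCDC80 or CD200, which are described below, it was 1.14 and 1.11.

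Other genes of this level were mostly spread more widely. Of the 17 rows of similar level, 13 had a higher index than GSK3B in HGC and 11 in LGC. Their index ran from 0.986 (SOD1) over a median of 1.19 to 4.57 (CCDC80) in HGC. In LGC it ran from 1.06 (NAA50) over a median of 1.27 to 4.56 (CD200). Among all 120 rows with at least 20 UMIs in each library, 83 and 79 had a higher index than GSK3B. GSK3B therefore stood among the more evenly counted rows, without being the most even.

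**Figure D3:**
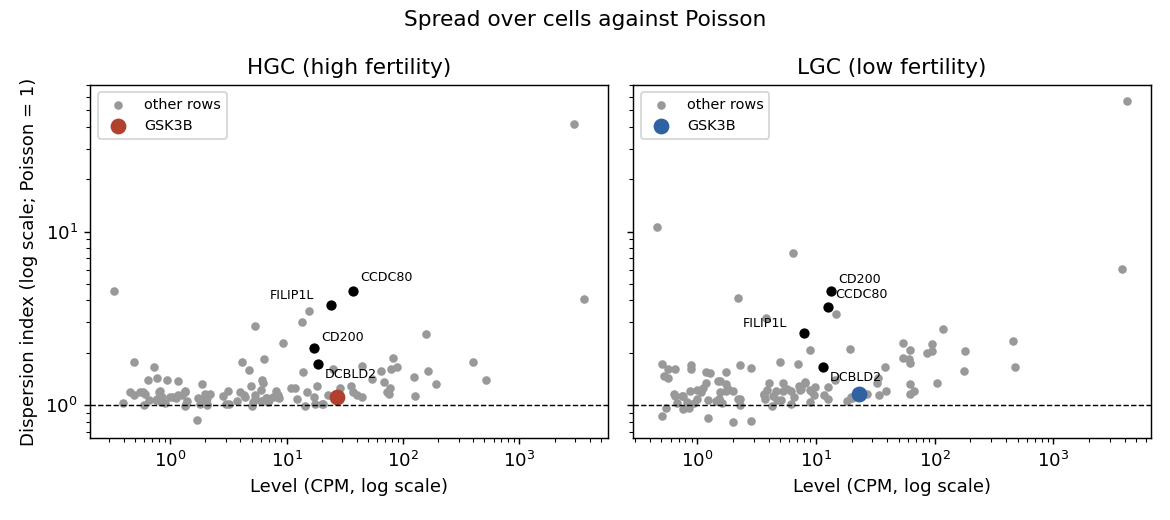
Dispersion index (vertical axis, log scale, 1 for Poisson) against level in CPM (horizontal axis, log scale) for the 120 rows with at least 20 UMIs in each library. GSK3B is the large coloured point, at 1.10 in HGC and 1.15 in LGC, and the 4 labelled black points are genes that were higher in cells with GSK3B, all of them with a higher index.

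The other rows were then compared between cells with and without a GSK3B UMI. In each library, the UMIs of a row in cells with GSK3B (1412 cells in HGC, 795 in LGC) were divided by those expected from cells without it in the same of 20 bins of depth. In all, 68 rows had at least 50 expected UMIs in both libraries. The median ratio of these rows was 1.09 in HGC and 1.02 in LGC. Most rows stayed near 1, with 56 and 57 of the 68 from 20% lower to 25% higher. An excess of at least 25% was seen for 11 rows in HGC (16.2%) and 8 in LGC (11.8%), but for 4 rows in both (5.88%). No row was lower by 20% or more in both (0%), with 1 in HGC (1.47%) and 3 in LGC (4.41%). The 4 rows were FILIP1L, DCBLD2, CCDC80 and CD200. The lowest of their ratios was 1.32, and the next row in order, PROS1, had 1.21 in its lower library. COL8A1, a short-chain collagen named after its values were seen, missed the minimum with 45.5 expected UMIs in LGC. Its ratios of 1.67 (1.49 to 1.87) in HGC and 2.29 (1.87 to 2.77) in LGC were both above 1.32, and its level was 16.9 CPM with and 6.31 CPM without GSK3B in HGC and 6.42 and 2.41 CPM in LGC. Its dispersion index was 2.28 and 3.16. With 8 fixed bins of depth it passed the minimum and made the count 5.

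FILIP1L (filamin A interacting protein 1 like) stood at 31.5 CPM in cells with GSK3B and 21.0 CPM in cells without in HGC, and at 9.94 against 6.82 CPM in LGC. At matched depth the ratio was 1.64 (95% interval 1.503 to 1.78) and 1.66 (1.41 to 1.93), close in the 2 libraries although FILIP1L itself was at different levels in them. FILIP1L UMIs were found in 16.6% of the HGC cells with GSK3B, beside 11.1% expected at their depth. In LGC the share was 11.2% beside 7.53%. FILIP1L overlaps CMSS1 in the RefSeq table and the ratio of CMSS1 was 1.12 (1.07 to 1.17) in HGC, also above 1, and 0.923 (0.873 to 0.974) in LGC. The dispersion index of CMSS1 was 1.66 and 1.99, so its intervals are too narrow. Whether reads were split between these rows was not tested.

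DCBLD2, a transmembrane protein of the neuropilin type, stood at 29.7 against 14.2 CPM in HGC and 15.8 against 9.06 CPM in LGC. Its ratio at matched depth was 1.54 (1.41 to 1.68) and 1.64 (1.45 to 1.85). DCBLD2 overlaps ST3GAL6 in the RefSeq table.

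CCDC80, a secreted protein of the extracellular matrix, had the highest ratio in HGC. It stood at 61.6 against 27.3 CPM there, a ratio at matched depth of 1.95 (1.83 to 2.07). In LGC its level was 13.8 CPM with and 11.9 CPM without GSK3B, and the ratio at matched depth was 1.48 (1.30 to 1.69). Detection of CCDC80 differed less than its UMIs, with 19.3% against 14.5% expected in HGC and 16.4% against 12.8% in LGC. A single HGC cell with GSK3B held 28 CCDC80 UMIs.

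CD200, a membrane glycoprotein that binds an inhibitory receptor on myeloid cells, had the highest ratio in LGC. It stood at 18.0 against 11.0 CPM there, a ratio of 1.80 (1.60 to 2.01), and at 21.8 against 15.5 CPM in HGC, a ratio of 1.32 (1.19 to 1.46). A single LGC cell with GSK3B held 26 CD200 UMIs. By share of cells the ratio was 1.47 in HGC and 1.37 in LGC. CD200 overlaps a long noncoding RNA in the RefSeq table.

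All 4 genes had a dispersion index well above that of GSK3B, from 1.65 to 4.57, so the intervals of their UMI ratios are too narrow. The same cells can be read from the other side, by the level of GSK3B in cells with each gene over that expected from cells without at matched depth. Since the 4 genes were counted for their ratios in these cells, the values restate that choice and are a description only. In the 713 HGC cells with FILIP1L the GSK3B ratio was 1.39 (1.24 to 1.55), and in the 228 LGC cells 1.36 (1.14 to 1.60). In cells with CD200 it was 1.32 (1.18 to 1.47) and 1.39 (1.20 to 1.59). In cells with CCDC80 it was 1.31 (1.18 to 1.45) and 1.17 (1.01 to 1.35), and in cells with DCBLD2 1.41 (1.27 to 1.56) and 1.12 (0.974 to 1.29). GSK3B stood at 36.2 CPM (32.5 to 40.2) in the 603 HGC cells with at least 2 of the 4 genes and at 23.4 CPM (21.9 to 25.01) in the 5017 cells with none of them. In LGC it stood at 29.0 CPM (24.9 to 33.5) in 250 such cells and at 21.2 CPM (19.5 to 23.0) in 2383.

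**Figure D4:**
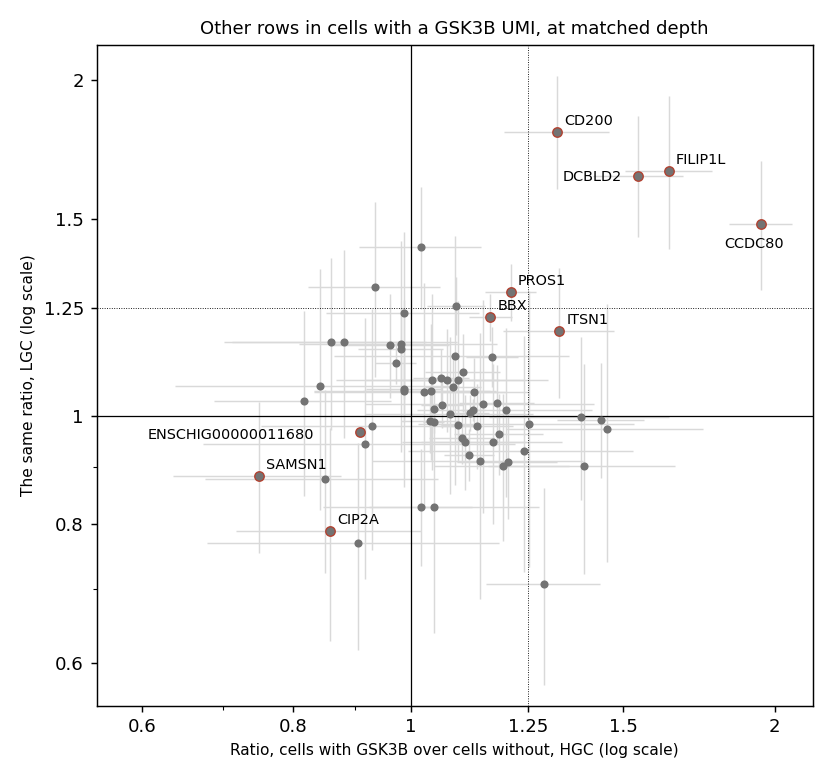
UMIs of each of 68 rows in cells with a GSK3B UMI over those expected from cells without at matched depth, in HGC (horizontal axis) and LGC (vertical axis), both on log scales. Points are rows, bars exact Poisson 95% intervals of the observed UMIs, and dotted lines an excess of 25%. FILIP1L, DCBLD2, CCDC80 and CD200 alone lie above 25% on both axes.

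The ratios of FILIP1L, DCBLD2, CCDC80 and CD200 were mostly larger in cells with more GSK3B. This is a description only, since these genes were counted for their ratios in these same cells. In HGC cells with 1 GSK3B UMI, CCDC80 was 1.80 times (1.67 to 1.93) as high as in cells without, and in cells with 2 or more 2.37 times (2.13 to 2.63). For FILIP1L the ratios were 1.53 (1.38 to 1.69) and 1.98 (1.69 to 2.32) in HGC and 1.28 (1.02 to 1.59) and 2.36 (1.87 to 2.94) in LGC. CD200 went from 1.252 (1.11 to 1.41) to 1.52 (1.26 to 1.83) in HGC and from 1.59 (1.36 to 1.84) to 2.22 (1.84 to 2.65) in LGC. CCDC80 had 1.29 (1.08 to 1.53) and 1.90 (1.53 to 2.34) in LGC. DCBLD2 went from 1.42 (1.28 to 1.58) to 1.83 (1.58 to 2.12) in HGC but from 1.75 (1.49 to 2.03) to 1.47 (1.18 to 1.81) in LGC.

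**Figure D5:**
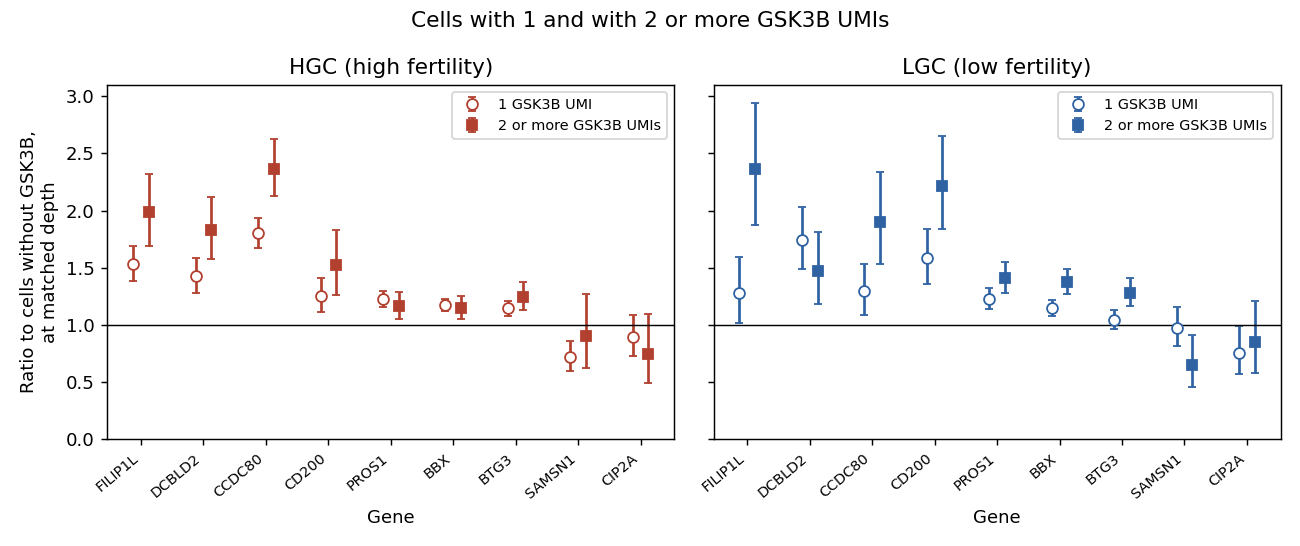
Ratio of 9 genes (horizontal axis) in cells with 1 GSK3B UMI (open circles) and with 2 or more (filled squares) to the level expected from cells without GSK3B at matched depth (vertical axis, linear). Bars are exact Poisson 95% intervals of the observed UMIs; CCDC80 reaches 2.37 in HGC and FILIP1L 2.36 in LGC, while SAMSN1 and CIP2A lie below 1 in both.

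Depth bore on the size of these ratios. The 4 genes were also followed over 3 bands of depth, as a description, since they were counted in these same cells. In cells under 7500 UMIs, DCBLD2 had 0.898 (0.556 to 1.37) in HGC, and in LGC CCDC80 had 0.729 (0.293 to 1.501) on 7 UMIs and CD200 0.882 (0.324 to 1.92) on 6. From 7500 to 15000 UMIs FILIP1L had 2.03 (1.78 to 2.30) and 1.76 (1.27 to 2.37), and at 15000 or more 1.43 (1.26 to 1.63) and 1.58 (1.30 to 1.91). CD200 in HGC had 1.65 (1.252 to 2.13), 1.71 (1.44 to 2.001) and 1.07 (0.924 to 1.24) over the 3 bands. Without cells above 15000 UMIs CCDC80 was at 1.67 (1.51 to 1.84) in HGC but 1.09 (0.818 to 1.41) in LGC, while FILIP1L, DCBLD2 and CD200 kept ratios of 1.57 to 2.12 on under 50 expected UMIs in LGC. Pairs of cells caught in 1 droplet were not searched for, and their part in these ratios was not tested.

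Further genes had ratios above 1 in both libraries, with an excess under 25% in at least 1 of them. They are to be read beside the median ratio of 1.09 in HGC. PROS1, which encodes the plasma protein S that also bridges dying cells to phagocytes, had ratios of 1.21 (1.15 to 1.27) and 1.29 (1.21 to 1.37). BBX, an HMG-box gene, had 1.16 (1.12 to 1.21) and 1.22 (1.17 to 1.29), and BTG3, an anti-proliferative gene, 1.17 (1.11 to 1.23) and 1.13 (1.06 to 1.20). ITSN1, an endocytic scaffold, had 1.33 (1.19 to 1.47) and 1.19 (1.04 to 1.36). IFT57, of the transport system of cilia, had 1.09 (1.03 to 1.15) and 1.255 (1.18 to 1.33), and CBLB, a ubiquitin ligase, 1.10 (1.03 to 1.19) and 1.09 (1.01 to 1.18). The dispersion index of these 6 genes ran from 1.19 to 2.26, so their intervals too are narrower than the spread over cells calls for. The reverse ratio of GSK3B was 1.02 (0.9501 to 1.09) in HGC cells with PROS1, 1.03 (0.949 to 1.12) with CBLB and 0.971 (0.908 to 1.04) with IFT57. These intervals hold 1, so for these genes the excess was not clear in both directions in that library.

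Lower rows were few. CIP2A, an inhibitor of protein phosphatase PP2A, had ratios of 0.859 (0.717 to 1.02) and 0.788 (0.629 to 0.976). SAMSN1, an adaptor of blood cells, had 0.749 (0.637 to 0.876) and 0.883 (0.753 to 1.03), and GSK3B in cells with SAMSN1 had 0.822 (0.680 to 0.986) and 0.831 (0.679 to 1.01). ENSCHIG00000011680, an abundant row with no symbol in the table, was at 0.909 (0.902 to 0.916) and 0.968 (0.960 to 0.975), with a dispersion index of 4.07 and 6.11. SAMSN1 had an index of 3.49 and 3.36, so for both rows the intervals are too narrow. ENSCHIG00000007885 had 0.906 (0.678 to 1.18) and 0.769 (0.617 to 0.946) and ENSCHIG00000015902 0.8497 (0.676 to 1.05) and 0.878 (0.723 to 1.06). NXPE3 had 0.817 (0.688 to 0.964) and 1.03 (0.848 to 1.24), and CGGBP1, a repeat-binding protein, 1.02 (0.924 to 1.12) and 0.829 (0.733 to 0.934), each lower in 1 library only. PAXBP1, CCDC191 and TOMM70, the last a receptor for protein import into mitochondria, had ratios between 0.917 and 1.04 with every interval holding 1.

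Cell by cell, these relations were weak. The Pearson correlation of depth-adjusted residuals with GSK3B, given as a description over 7106 and 3345 cells that share their library, ran from -0.0889 to 0.0739 over the 68 rows in HGC and from -0.0829 to 0.129 in LGC. The lowest value was that of ENSCHIG00000011680 in both. FILIP1L had 0.0539 and 0.0781, CD200 0.0488 and 0.0899, DCBLD2 0.0527 and 0.0716, and CCDC80 0.0587 and 0.0265. None of these was the highest. In HGC ENSCHIG00000022046 had 0.0739, and in LGC BBX had 0.129 and PROS1 0.120. The medians of the 68 rows were 0.00986 and 0.0213, so CCDC80 was near the median in LGC. Across the 68 rows, which are not independent replicates, the ratios of the 2 libraries had a Spearman correlation of 0.0301 and, as logs, a Pearson correlation of 0.329. Without the 4 genes the Pearson correlation was -0.0557. Since the 4 were counted for high ratios in both libraries, their removal had to lower it.

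The pathway itself is hardly represented among the rows. Of 30 genes listed for the Wnt pathway only TIAM1, a guanine nucleotide exchange factor of Rac, is a complete row, of 20 for the insulin and PI3K pathway none, and of 16 priming kinases, substrates and partners only APP. The others were not analysed here. TIAM1 had ratios of 1.05 (0.847 to 1.28) in HGC and 0.828 (0.639 to 1.06) in LGC, on 96 and 65 UMIs in cells with GSK3B. APP, the amyloid precursor protein, stood at 5.001 against 3.54 CPM in cells with and without GSK3B in HGC, and at 1.98 against 1.22 CPM in LGC. At matched depth the ratio of APP was 1.58 (1.27 to 1.95) on 90 UMIs and 2.18 (1.49 to 3.08) on 32 UMIs, and the 14.6 UMIs expected in LGC kept it below the minimum of 50. In cells with 1 GSK3B UMI the ratio of APP was 1.68 (1.32 to 2.11) in HGC and 1.38 (0.757 to 2.32) in LGC. With 2 or more it was 1.24 (0.709 to 2.02) on 16 UMIs in HGC and 3.96 (2.35 to 6.27) on 18 in LGC. GSK3B in cells with APP had ratios of 1.30 (1.07 to 1.57) and 1.94 (1.46 to 2.54).

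None of the 4 rows next to GSK3B in the table was higher with it in both libraries. COX17, a copper chaperone of cytochrome c oxidase, had 1.10 (1.04 to 1.17) in HGC and 0.955 (0.906 to 1.01) in LGC. FSTL1, a secreted glycoprotein related to follistatin, had 1.14 (0.930 to 1.39) and 0.910 (0.686 to 1.19). LRRC58 had 2 UMIs in HGC cells with GSK3B beside 1.06 expected and 0 in LGC beside 1.59 expected. ENSCHIG00000019072 had 0 beside 2.61 and 3 beside 7.05. These counts are too low for a ratio to be read.

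Of the markers listed for ovarian cell types, none of 8 granulosa, 5 theca, 5 endothelial, 5 stromal or 4 oocyte genes is a complete row, so the labelled cell type could not be checked and no cell class was named. Of 8 leukocyte markers 3 are rows: SAMSN1, given above, and CD96 and CD80 with 3 and 2 UMIs each in cells with GSK3B in HGC and LGC. Of 4 surface epithelium markers UPK1B is a row, with 8 UMIs beside 6.07 expected in HGC (ratio 1.32, 0.569 to 2.60) and 11 beside 4.84 in LGC (2.27, 1.13 to 4.07). Whether a difference in the makeup of cells has a part in the GSK3B ratios was not tested. ENSCHIG00000012599 has a low and a high mode over cells, split at a deposited value of 2.5. GSK3B was at 27.0 and 27.3 CPM above and below that value in HGC (ratio at matched depth 1.01, 0.943 to 1.08), and at 21.8 and 27.3 CPM in LGC (0.792, 0.735 to 0.852). Whether the libraries differ in this was not tested. By its UMIs in cells with GSK3B at matched depth, the row had ratios of 1.046 (1.038 to 1.055) in HGC and 1.014 (1.006 to 1.022) in LGC. GSK3B in cells with any UMI of the row had 1.01 (0.956 to 1.06) and 1.38 (1.29 to 1.47). In LGC 3016 of the 3345 cells held the row, so the expected UMIs came from few cells but were taken as fixed. The LGC value therefore cannot be set against the split. The dispersion index of the row was 41.6 and 56.6, so the intervals of its UMI ratios are too narrow.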

How the data were processed

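The data used were the table that the authors deposited, with values on a natural log scale, and the RefSeq gene table of assembly ARS1.2, used for names and overlaps. Cell Ranger 2.2.0 was used per the submitters' processing notes; build, annotation, cell filter and normalizing program are not stated in those sources. Each value was found to be ln(1 + 10000 × UMIs / total) for its cell. The total was taken as the smallest whole number at which every value of the cell was a whole UMI within 0.0001, which succeeded in all 10451 cells and for all 177610 values above 0; a total comes out too low where all UMIs of a cell share a factor, most likely in the 92 cells with under 5 rows above 0. The table holds 154 complete rows; 1 incomplete row was left out, and all cells were kept (about 12000 are stated for the study). Cells were assigned by column prefix.

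Levels are summed UMIs over summed totals. Expected counts for the dispersion index were 1 rate per library times the total of each cell; its Poisson range uses the variance of the multinomial chi-square. Ratios at matched depth used 20 equal-sized bins per library, with expected UMIs taken as fixed, which makes intervals somewhat too narrow. Genes were named by these rules: the 10 highest and 10 lowest by the ratio in the less favourable library, the 2 rows on either side of GSK3B, and members of the gene lists. SOD1, NAA50, ADAMTS1, CMSS1, ST3GAL6, COL8A1 and ENSCHIG00000022046 were named after their values were seen. The members and lists were chosen with earlier results of these data known. Scripts were tested on simulated data and run with Python 3.11.15, numpy 2.4.6 and scipy 1.17.1. With 1 library per group no p-value is given.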

Additional observations from a re-analysis of the deposited data

Results flagged for a closer look

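For 2 rows the ratio in cells with GSK3B to that in cells without at matched depth lay on opposite sides of 1 in the libraries, with intervals that exclude 1; the difference between the libraries was not tested. ADAMTS1, a protease that acts on the matrix around ovulation, had 1.29 (1.16 to 1.43) in HGC and 0.707 (0.574 to 0.862) in LGC. Its dispersion index was 3.02 and 7.51, so these intervals are too narrow, and by share of cells with a UMI the ratio was 1.32 and 1.15, above 1 in both. CMSS1, which overlaps FILIP1L, had 1.12 (1.07 to 1.17) and 0.923 (0.873 to 0.974), while GSK3B in cells with CMSS1 had 0.910 (0.853 to 0.969) and 1.12 (1.03 to 1.20), the opposite order. The dispersion index of CMSS1 was 1.66 and 1.99, so the intervals of its UMI ratios are too narrow. The reverse intervals take the expected UMIs as fixed and are too narrow as well. By share of cells the ratio of CMSS1 was 1.06 and 1.02, above 1 in both.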

How the results depend on the processing

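The GSK3B level ratio kept its direction in all 6 other settings, from 1.14 to 1.16 in 5 of them and 1.04 once divided by the median of the abundant rows, and the dispersion index stayed above its Poisson range in all 5 settings of either library. The share of cells with GSK3B moved by thinning, to 5.22% and 4.63% at 2000 and to 12.1% and 10.9% at 5000 UMIs. The count of 4 genes higher with GSK3B became 2 with cells of 2 or more GSK3B UMIs (36 rows tested), 2 at 1.5-fold, 21 with no minimum of expected UMIs, 6 at a minimum of 20 (COL8A1 and PHLDB2 added), 5 with 8 fixed bins (COL8A1 added), 3 relative to the median of the rows (CD200 lost, at 1.21 in HGC), 3 without matching on depth (CCDC80 lost, at 1.16 in LGC), and 1, PROS1, without cells above 15000 UMIs. There only 34 rows were tested: FILIP1L, DCBLD2 and CD200 had ratios of 1.57 to 2.12 but fell below the minimum in LGC. With cells of 2 or more GSK3B UMIs, FILIP1L and CCDC80 likewise fell below it in LGC. They had 33.9 and 47.3 expected UMIs there, with ratios of 2.36 and 1.90. The count of 0 lower became 2 without matching on depth, 4 with no minimum, and 1, CIP2A, relative to the median of the rows. Of 576 recomputed ratios of named genes, 469 stayed within their interval and 107 left it. The settings by share of cells, without shared barcodes, relative to the median of the rows, and without cells with the 4 genes were chosen after seeing the data. No paired analysis was possible because a single library stands for each group. Depth limits ratios of rows with few UMIs, such as LRRC58.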
